A study of Macaca fascicularis with 56 samples.

Results

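The immunoglobulin Fc receptor genes described here are FCGR1A, FCGR2A, FCGR2B, FCER1G, FCAR, FCER2 and FCGRT, measured in blood of cynomolgus macaques. They were chosen by name, and each was read by the probe set that carries its symbol alone and has the highest mean over all arrays. All 7 of 7 genes had such a probe set and passed the filter on low values, out of 16020 genes tested. The study is titled as one of endotoxin challenge and treatment, and it has an array from each of 14 animals at 0, 2, 4 and 8 h, which makes 56 arrays. The labels name 3 arms: vehicle with 4 animals, a peptide control with 4 animals and LR12 with 6 animals. LR12 is a peptide from TREM-like transcript 1 that competes for the ligands of the receptor TREM-1, and the peptide control is its scrambled form. The labels do not give doses, the moment that counts as 0 h, or whether the vehicle animals received endotoxin.

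Fc receptors bind the constant part of antibodies and tie antibody binding to the actions of leukocytes. FCGR1A encodes the high-affinity receptor for IgG (CD64) of monocytes, which interferon gamma induces, also on neutrophils. FCGR2A encodes an activating and FCGR2B an inhibitory low-affinity IgG receptor. FCER1G encodes the signalling gamma chain that FCGR1A, FCAR and the high-affinity IgE receptor share. FCAR encodes the IgA receptor of myeloid cells (CD89), FCER2 the low-affinity IgE receptor of B cells (CD23), and FCGRT the heavy chain of the neonatal receptor that salvages IgG from breakdown.

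Levels are given as log2 of the deposited array intensity, a difference of 1 being a doubling, and are compared only within a gene, because probe sets differ and the probes were designed on human sequence. The arrays had been brought to one scale: the mean after trimming 2% of values ran from 150.03 to 150.04. The median intensity of an array was 12.9 to 23.5, and some FCGR1A and FCER2 values lay below their array's median. By 24 spiked-in control probe sets the arrays fell into a set of 24 with high and a set of 32 with low control signals, and the sets were spread unevenly over the groups: the high set held 1, 1, 2 and 3 of the 6 LR12 arrays at 0, 2, 4 and 8 h, 3, 1, 4 and 3 of the 4 peptide control arrays, and 2, 0, 2 and 2 of the 4 vehicle arrays. Within the high set the LR12 arm has 1 array at 0 h, of Y31310, and 1 at 2 h, of Y31311, so that no animal is compared with itself there.

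Changes from 0 h were tested with limma over all genes, with the animal as a random block, and a gene was called at a Benjamini-Hochberg adjusted p under 0.05. All groups of arm and hour shared 1 estimate of a gene's spread. A standard error (SE) given here is therefore not that of the animals of 1 arm alone. In the LR12 arm 6 of the 7 Fc receptor genes were called at 2 h, 5 of them higher and FCER2 lower, when 37.8% of all genes were called. At 4 h 4 were called, all higher, against 42.6% of all genes. At 8 h 4 were called higher and 1 lower, against 36.4% of all genes. The calls of all genes in that arm ran mostly downward, with 1932 higher against 4126 lower at 2 h, 2047 against 4780 at 4 h, and 1740 against 4092 at 8 h. In the peptide control arm 2, 1 and 1 members were called at 2, 4 and 8 h, all higher, against 7.63%, 15.3% and 4.29% of all genes. In the vehicle arm limma called 0 members at every hour, against 0.0749%, 0.481% and 0.144% of all genes; 3, 3 and 1 members had an unadjusted p under 0.05, and a fit without the block also called 0. The median change of the 7 genes in the LR12 arm was 0.59, 0.41 and 0.37 on the log2 scale, while the median over all genes was -0.18, -0.29 and -0.27. In the vehicle arm the members' medians were 0.58, 0.49 and 0.37, beside 0.03, -0.15 and -0.06 over all genes, and in the peptide control arm 0.44, 0.44 and 0.25 beside -0.04, -0.26 and -0.11.

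**Figure D1:**
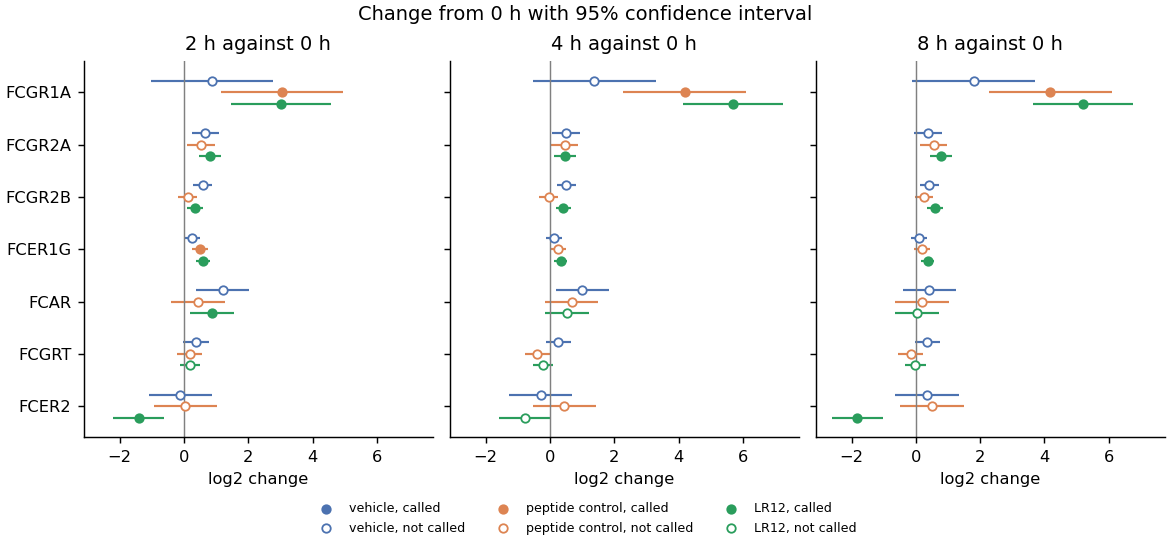
The plot gives the change from 0 h on the log2 scale (horizontal axis) of each Fc receptor gene at 2, 4 and 8 h, with its 95% confidence interval, for the vehicle (4 animals), peptide control (4 animals) and LR12 (6 animals) arms. Filled points were called by limma; FCGR1A has the changes farthest above 0, up to 5.69 in the LR12 arm at 4 h, and FCER2 in the LR12 arm lies below 0.

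FCGR1A rose in all 6 LR12 animals, 51.5-fold on average at 4 h. In that arm it lay at 5.25 to 6.21 at 0 h (median 5.93), at 8.12 to 9.81 at 2 h (median 8.89), at 10.82 to 12.02 at 4 h (median 11.72) and at 10.43 to 11.60 at 8 h (median 11.17). No LR12 animal at a later hour overlapped any LR12 animal at 0 h, which held for 14.5%, 19.4% and 14.2% of all genes at 2, 4 and 8 h. The rise was 3.02 ± 0.77 (SE, n = 6) at 2 h, 8.13-fold (adjusted p = 0.00141). It was 5.69 ± 0.77 at 4 h, 51.5-fold (adjusted p = 6e-08). It was 5.19 ± 0.77 at 8 h, 36.5-fold (adjusted p = 9.69e-07). The animals' own rises to 4 h ran from 5.30 to 6.12. Within the low-control arrays the LR12 rise was 3.08, 5.85 and 5.29 at 2, 4 and 8 h, called each time, and within the high-control arrays, with 1 array at 0 h, it was 5.30 and 4.91 at 4 and 8 h, not called.

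FCGR1A rose in the peptide control arm as well, with animals that differed widely. Y31306 read 4.33, 9.85, 11.66 and 10.95 at 0, 2, 4 and 8 h. Y31307 read 4.07, 6.69, 10.79 and 10.13, and Y31308 read 8.47, 11.38, 12.02 and 11.26. These 3 animals rose from different starting levels to 10.79 or more at 4 h. Y31305 read 7.43, 8.54, 6.58 and 8.71 and was below its own 0 h value at 4 h. The animals' own changes to 4 h ran from -0.85 to 7.33, wider than the 5.30 to 6.12 of the LR12 animals. Only at 8 h did the group not overlap with that at 0 h, as in 7.53% of all genes. With the spread shared by all groups, the arm's rise was 3.04 ± 0.95 at 2 h (adjusted p = 0.0369), 4.19 ± 0.95 at 4 h (adjusted p = 0.00301) and 4.19 ± 0.95 at 8 h (adjusted p = 0.00751, n = 4). These calls rest on few animals: without Y31306 the rises were 2.21, 3.14 and 3.37 with limma adjusted p of 0.347, 0.0926 and 0.216, and without Y31307 they were 3.18, 3.34 and 3.56 with adjusted p of 0.0797, 0.0693 and 0.0952. The 2 h call was also lost without Y31308, at 3.08 (adjusted p = 0.123), and without Y31309, Y31311 or Y31313 of the LR12 arm (adjusted p = 0.0541, 0.051 and 0.0504). Without the animal block the 2 h and 8 h calls were lost too (adjusted p = 0.179 and 0.074).

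FCGR1A in the vehicle arm stood apart in a single animal. Y31303 read 6.30, 9.49, 11.30 and 11.37 at 0, 2, 4 and 8 h, within the range of the LR12 animals at every later hour. Y31301 read 4.80, 4.89, 4.93 and 6.52. Y31302 read 4.08, 3.66, 4.18 and 4.45, and Y31304 read 6.06, 6.66, 6.37 and 6.10. These other 3 animals stayed at or below 6.66 throughout. The changes of the arm, 0.87, 1.38 and 1.80 (SE 0.95, n = 4), were not called (limma adjusted p = 0.867, 0.520 and 0.551), and their 95% intervals reached 2.78, 3.29 and 3.70.

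**Figure D2:**
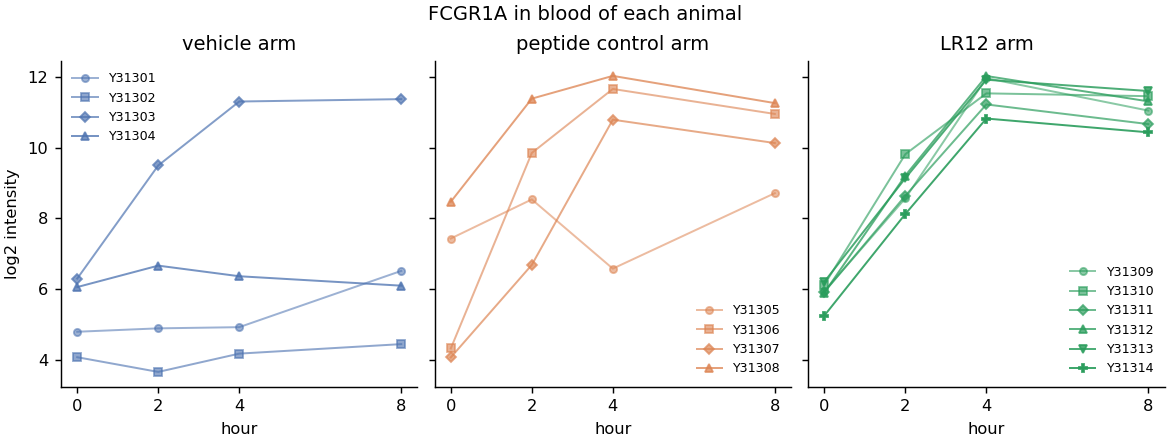
FCGR1A as log2 intensity (vertical axis) against hour (horizontal axis), with a line for each animal of the vehicle, peptide control and LR12 arms. All 6 LR12 lines climb to between 10.82 and 12.02 at 4 h; in the vehicle arm only Y31303 reaches that range, and in the peptide control arm Y31305 stays lower than the other 3 at every hour after 2 h.

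Set against vehicle at the same hour, FCGR1A in the LR12 arm was higher by 2.74 ± 0.98 at 2 h (adjusted p = 0.0447), 4.88 ± 0.98 at 4 h (adjusted p = 0.000819) and 3.97 ± 0.98 at 8 h (adjusted p = 0.0150), by limma with 6 against 4 animals. The arms overlapped at each of these hours because of Y31303. At 0 h the difference was 0.58 and not called. The change from 0 h itself was larger under LR12 than in the vehicle arm by 4.30 ± 1.22 at 4 h (adjusted p = 0.0276), while at 2 and 8 h the differences of 2.15 and 3.39 were not called (adjusted p = 0.272 and 0.112). Without Y31303 the difference from vehicle was 3.84, 6.42 and 5.39 at 2, 4 and 8 h, each called, and that in the change to 8 h became 4.48 (adjusted p = 0.00594). Leaving out a vehicle animal that stayed low had the opposite effect: without Y31301, Y31302 or Y31304 the 2 h difference was 2.31, 1.90 or 2.90 (adjusted p = 0.180, 0.249 and 0.0824), the 8 h difference 3.78, 3.09 or 3.64 (adjusted p = 0.0918, 0.170 and 0.0756), and the difference in change to 4 h 3.88, 3.87 or 3.94 (adjusted p = 0.112, 0.0723 and 0.150), none called. The 2 h difference also lost its call without any of the LR12 animals (adjusted p from 0.0551 to 0.0988), with 16 added before taking logs (adjusted p = 0.0648) and with the array set as a covariate (adjusted p = 0.0535), and the difference in change to 4 h without Y31311, Y31312 or Y31313 (adjusted p = 0.0511, 0.0611 and 0.0519) and without the block (adjusted p = 0.157). Within the high-control arrays the differences from vehicle at 4 and 8 h were 2.57 and 2.28, not called.

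No difference in FCGR1A between LR12 and its scrambled control was called, which does not show that these arms were alike. The differences were -0.20, 1.32 and 0.82 (SE 0.98) at 2, 4 and 8 h, with adjusted p of 0.949, 0.554 and 0.810. Peptide control against vehicle was likewise not called for the change from 0 h, at 2.17, 2.80 and 2.39 (SE 1.34). In level, the peptide control means were 9.11, 10.26 and 10.26 at 2, 4 and 8 h, and the vehicle means 6.18, 6.69 and 7.11. With all animals these differences in level were not called by limma either. Without Y31303, the vehicle animal highest in this gene, the difference in level was 4.04, 5.10 and 4.57 (limma adjusted p = 0.00328, 0.000399 and 0.00444). Leaving out Y31303 also raised the calls over all genes, from 0, 4 and 4 to 732, 1324 and 310.

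Other probe sets of the FCGR1 family also read higher in the LR12 arm, by less than that of FCGR1A at each hour. The probe set annotated to FCGR1BP, a near-identical human copy for which the macaque gene table used here has no entry, rose in the LR12 arm by 1.58, 4.04 and 3.4, each called over all probe sets. A probe set shared by FCGR1CP, FCGR1BP and FCGR1A rose by 3.55 at 4 h and 3.11 at 8 h and read 1.13 at 2 h, not called (adjusted p = 0.11). In the peptide control arm the FCGR1BP probe set rose by 1.98, 2.86 and 2.79 at 2, 4 and 8 h. The shared one read 1.97, 3.06 and 2.89 there, the first not called. At 2 h both values were thus above those of the LR12 arm. Transcripts of such near-identical copies may share probes on this array. Adjusted over all probe sets, the rise of FCGR1A in the peptide control arm at 2 h was not called (adjusted p = 0.061), nor was its difference between LR12 and vehicle at 2 h (adjusted p = 0.0653).

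FCER1G, the chain through which FCGR1A and FCAR signal, rose by small amounts with little spread. In the LR12 arm it lay at 13.24 to 13.47 at 0 h (median 13.35), 13.62 to 14.18 at 2 h (median 13.97), 13.38 to 13.93 at 4 h (median 13.72) and 13.46 to 13.92 at 8 h (median 13.71). The groups at 0 and 2 h did not overlap, as in 14.5% of all genes, and all 6 animals were above their 0 h value at each later hour. The rises were 0.59 ± 0.10 at 2 h (adjusted p = 5.55e-06), 0.34 ± 0.10 at 4 h (adjusted p = 0.00581) and 0.37 ± 0.10 at 8 h (adjusted p = 0.00294, n = 6). In the peptide control arm the 4 animals went from 13.32, 13.24, 13.31 and 13.39 at 0 h to 13.62, 13.88, 13.77 and 13.98 at 2 h. These groups did not overlap either, as in 8.41% of all genes. The rise of 0.50 ± 0.12 was called (adjusted p = 0.00699), but not without Y31306, at 0.45 (adjusted p = 0.103), or without Y31308, at 0.47 (adjusted p = 0.0784). The second FCER1G probe set gave 0.33 there, not called (adjusted p = 0.0824), and the rise was 0.48 within the low-control and 0.56 within the high-control arrays, not called (adjusted p = 0.280 and 0.207). In the vehicle arm the change at 2 h was 0.24 ± 0.12 (limma adjusted p = 0.553), and the highest animal at 2, 4 and 8 h was Y31303, at 13.98, 13.90 and 13.90. A second probe set of FCER1G gave 0.46, 0.21 and 0.26 in the LR12 arm, the 4 h value not called (adjusted p = 0.069). Within the low-control arrays the LR12 rises were 0.62, 0.46 and 0.49, all called, and within the high-control arrays 0.13 and 0.28 at 4 and 8 h, not called. LR12 against vehicle at 2 h was 0.35 ± 0.13 (adjusted p = 0.0513), and without Y31303 it was 0.48 (adjusted p = 0.00347).

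**Figure D3:**
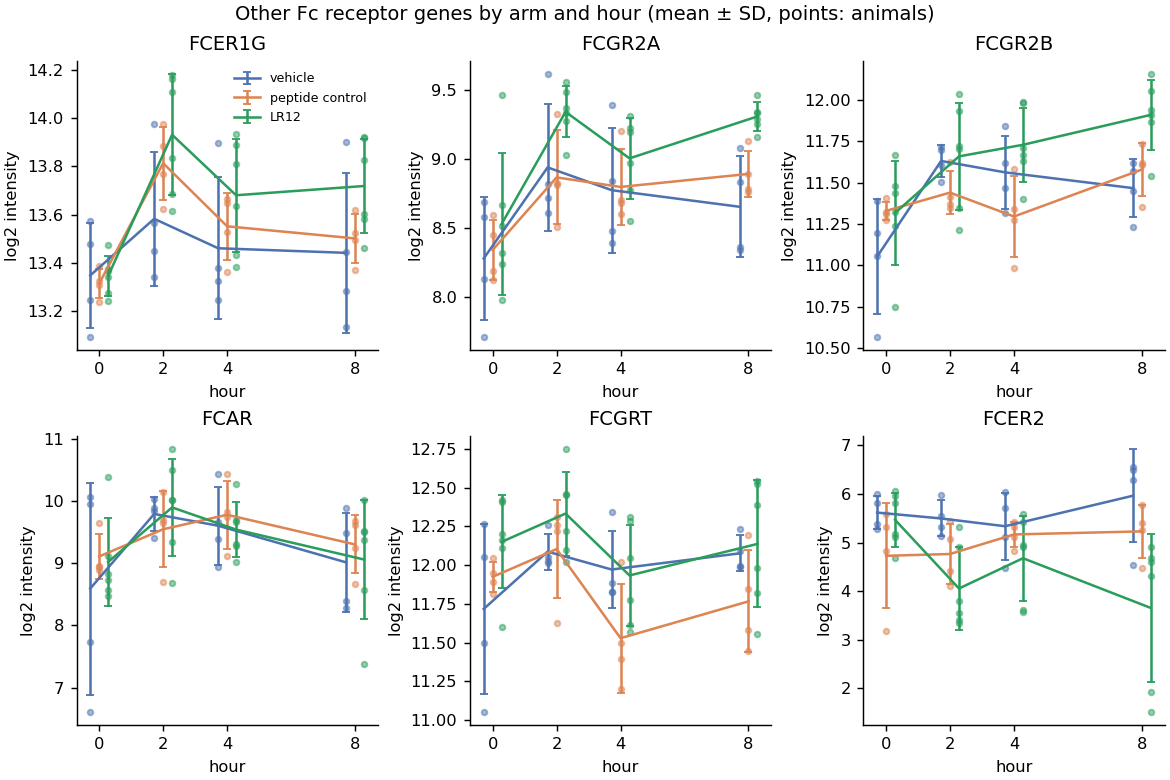
Log2 intensity (vertical axis) against hour (horizontal axis) of the 6 members other than FCGR1A. Points are animals, slightly shifted by arm, and lines join the arm means with bars of 1 SD (vehicle and peptide control n = 4, LR12 n = 6); FCER1G and FCGR2A rise after 0 h in the LR12 arm, and FCER2 falls there to a mean of 3.65 at 8 h.

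The low-affinity IgG receptors moved less than FCGR1A. FCGR2A, the activating one, lay at 7.97 to 9.46 in the LR12 arm at 0 h (median 8.41), 9.03 to 9.56 at 2 h (median 9.35), 8.55 to 9.30 at 4 h (median 9.08) and 9.16 to 9.46 at 8 h (median 9.31). The groups overlapped at each hour, at 2 and 8 h only through Y31314, which was at 9.46 at 0 h. FCGR2A rose by 0.81 ± 0.17 at 2 h (adjusted p = 0.000137), 0.48 ± 0.17 at 4 h (adjusted p = 0.0219) and 0.78 ± 0.17 at 8 h (adjusted p = 0.000327). The 4 h call was lost without Y31309, Y31311 or Y31312, at 0.32, 0.37 and 0.42 (adjusted p = 0.180, 0.127 and 0.0797), without the block (adjusted p = 0.0583) and within the low-control arrays, at 0.44 (adjusted p = 0.122). Within those arrays the rises at 2 and 8 h were 0.78 and 0.69, both called, and within the high-control arrays the values at 4 and 8 h were 0.48 and 0.75, not called. A second FCGR2A probe set gave 2.02 at 2 h, called, and 1.0 and 0.68 at 4 and 8 h, not called.

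In both control arms FCGR2A read higher after 0 h without reaching the threshold. The peptide control animals went from 8.45, 8.19, 8.59 and 8.12 at 0 h to 8.78, 8.76, 8.89 and 9.13 at 8 h, with no overlap, as in 7.53% of all genes. The difference was 0.55 ± 0.21 (limma adjusted p = 0.125). The vehicle animals went from 8.13, 7.71, 8.58 and 8.69 at 0 h to 8.60, 8.72, 9.61 and 8.81 at 2 h, a difference of 0.66 ± 0.21 (adjusted p = 0.194). The highest of these at 2 h was again Y31303. LR12 against vehicle in the level of FCGR2A was 0.40 ± 0.22 at 2 h and 0.65 ± 0.22 at 8 h, not called (limma adjusted p = 0.219 and 0.0656). Without Y31303 these were 0.63 and 0.80, both called (adjusted p = 0.0363 and 0.0102). The 2 h difference was also called with the mean of the gene's probe sets, at 0.97 (adjusted p = 0.0484), and the 8 h difference with the array set as a covariate (adjusted p = 0.0424). The change of FCGR2A at 2 h differed between LR12 and vehicle by 0.15 ± 0.27 and between LR12 and the peptide control by 0.29 ± 0.27, neither called.

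FCGR2B, the inhibitory receptor, lay at 10.74 to 11.67 in the LR12 arm at 0 h (median 11.38), 11.21 to 12.04 at 2 h (median 11.71), 11.40 to 11.99 at 4 h (median 11.69) and 11.54 to 12.16 at 8 h (median 11.92). The groups overlapped at every hour, while all 6 animals were above their own 0 h value at 2 and at 8 h and 5 of 6 at 4 h. It rose by 0.34 ± 0.12 at 2 h (adjusted p = 0.0182), 0.41 ± 0.12 at 4 h (adjusted p = 0.00370) and 0.59 ± 0.12 at 8 h (adjusted p = 8.67e-05). The 2 h call was lost without Y31312, at 0.29 (adjusted p = 0.0810), without Y31313, at 0.33 (adjusted p = 0.0531), and without the block (adjusted p = 0.0562). Quantile normalization gave 0.17 at 2 h and 0.24 at 4 h, not called (adjusted p = 0.260 and 0.0932). FCGR2B in the peptide control arm moved by 0.11, -0.03 and 0.25, not called. In the vehicle arm the animals went from 11.06, 10.57, 11.39 and 11.20 at 0 h to 11.51, 11.61, 11.70 and 11.72 at 2 h, with no overlap, as in 3.97% of all genes. That difference of 0.58 ± 0.15 had an unadjusted p of 0.000224 and an adjusted p of 0.115. LR12 minus vehicle in the change to 2 h was -0.24 ± 0.19, not called (limma adjusted p = 0.471). The FCGR2 genes are near-identical in part, and probe sets annotated to the human copy FCGR2C disagreed in the LR12 arm: one gave 0.98, 0.99 and 0.72 (the last not called), another 0.64, 0.60 and 0.57, all called, and the remaining one 0.09, -0.19 and -0.37, not called. A probe set shared by FCGR2C and FCGR2A rose by 2.28, 1.61 and 0.91 under LR12, all called, and by 1.34 at 2 h in the peptide control arm. In that probe set LR12 exceeded vehicle by 1.94 ± 0.41 at 2 h (adjusted p = 0.00101) and by 1.25 ± 0.41 at 4 h (adjusted p = 0.0440), adjusted over all probe sets.

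FCAR, the IgA receptor, rose in the LR12 arm at 2 h. It lay there at 8.47 to 10.39 at 0 h (median 8.78), 8.68 to 10.83 at 2 h (median 10.01), 9.02 to 10.27 at 4 h (median 9.49) and 7.37 to 10.01 at 8 h (median 9.44). The groups overlapped at all hours, and 5 of 6 animals were above their 0 h value at 2 h. The rise at 2 h was 0.88 ± 0.34 (adjusted p = 0.0350), and the changes of 0.52 at 4 h and 0.04 at 8 h were not called, the former reaching 0.78 and a call with arrays centred on their median (adjusted p = 0.0452). The call was lost without Y31309, Y31311 or Y31312, at 0.74, 0.70 and 0.87 (adjusted p = 0.134, 0.159 and 0.0730), without the block (adjusted p = 0.112), without the filter on low values (adjusted p = 0.0519), when adjusted over all probe sets (adjusted p = 0.0514) and within the low-control arrays (0.76, adjusted p = 0.0652).

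The probe sets of FCAR disagreed on the later hours. A second one, of lower signal, rose in the LR12 arm by 1.43, 1.75 and 1.5 at 2, 4 and 8 h, all called, from a median of 5.65 at 0 h to 7.34 at 4 h. Another rose by 0.95 at 2 h and 1.13 at 8 h, and the last moved by 0.16, -0.76 and -0.04, not called. FCAR split by animal in the vehicle arm: Y31301 and Y31302 went from 6.61 and 7.73 at 0 h to 9.40 and 9.84 at 2 h, while Y31303 and Y31304 went from 9.95 and 10.07 to 9.89 and 10.03. The vehicle change of 1.2 ± 0.41 was not called (limma adjusted p = 0.242). LR12 minus vehicle in this change was -0.32 ± 0.53, not called.

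FCGRT, the recycling receptor, was called in no comparison, by limma with or without the block. In the LR12 arm it lay at 11.60 to 12.42 at 0 h (median 12.18), 12.02 to 12.75 at 2 h (median 12.33), 11.57 to 12.31 at 4 h (median 11.91) and 11.56 to 12.54 at 8 h (median 12.18), overlapping throughout. The 95% intervals of its LR12 changes were -0.14 to 0.50 at 2 h, -0.53 to 0.10 at 4 h and -0.33 to 0.31 at 8 h. The peptide control animals went from 11.81, 11.95, 11.89 and 12.04 at 0 h to 12.02, 11.39, 11.20 and 11.50 at 4 h, lower in 3 of 4, a change of -0.40 ± 0.19 with an unadjusted p of 0.0466 and an adjusted p of 0.158. Without Y31305, the animal that was higher, the change was -0.60 (adjusted p = 0.0405). Under quantile normalization the LR12 change at 4 h was -0.42 and called (adjusted p = 0.0214), and without Y31309 it was -0.40 (adjusted p = 0.0450). The vehicle change at 2 h of 0.37 ± 0.19 was not called (adjusted p = 0.546).

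FCER2, the IgE receptor of B cells, fell in the LR12 arm. Its level was low, above the array median on 46 of 56 arrays. The LR12 animals lay at 4.68 to 6.06 at 0 h (median 5.49), 3.33 to 5.32 at 2 h (median 3.68), 3.57 to 5.59 at 4 h (median 4.93) and 1.52 to 4.90 at 8 h (median 4.45). All 6 animals were below their 0 h value at 2 h and at 8 h and 4 of 6 at 4 h, and the groups overlapped. It fell by 1.41 at 2 h (SE 0.40, adjusted p = 0.00345) and by 1.82 at 8 h (SE 0.40, adjusted p = 0.000287), while the 4 h difference of -0.79 was not called (adjusted p = 0.107). The 8 h mean was pulled down by Y31310 at 1.91 and Y31312 at 1.52. With 16 added to the intensities before taking logs the changes at 2 and 8 h were -0.85 and -0.94, both called. A second FCER2 probe set gave -1.29, 0.07 and -0.70, not called. Within the low-control arrays the changes at 2 and 8 h were -1.37 and -1.58, both called, and within the high-control arrays -1.19 at 8 h, not called.

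The peptide control animals read 5.32, 4.83, 5.59 and 3.18 in FCER2 at 0 h and 5.77, 4.47, 5.41 and 5.26 at 8 h, a difference of 0.50 ± 0.49, not called (limma adjusted p = 0.628). The vehicle animals read 5.82, 5.99, 5.27 and 5.39 at 0 h and 6.55, 6.48, 4.54 and 6.29 at 8 h, a difference of 0.35 ± 0.49, not called (adjusted p = 0.892). The low vehicle value at 8 h was that of Y31303. LR12 differed from vehicle by -1.44 ± 0.51 at 2 h (adjusted p = 0.0393) and by -2.31 ± 0.51 at 8 h (adjusted p = 0.00615). The 8 h call was lost without Y31301, at -2.12 (adjusted p = 0.0598), and without Y31302, at -2.14 (adjusted p = 0.0592), and within the high-control arrays, at -1.94 (adjusted p = 0.720). The second probe set gave -2.04 at 2 h, called over all probe sets (adjusted p = 0.0384), and -1.64 at 8 h, not called (adjusted p = 0.168). The 2 h call was lost without Y31301, Y31302 or Y31304 (adjusted p = 0.0987, 0.0779 and 0.146), without Y31310, Y31311, Y31312 or Y31314 (adjusted p = 0.0605 to 0.0740), without the block (adjusted p = 0.0523), with arrays centred on their median (adjusted p = 0.0513) and within the low-control arrays, at -1.37 (adjusted p = 0.0703). The difference between LR12 and vehicle in the change to 8 h was -2.16 ± 0.63 (adjusted p = 0.0533), and against the peptide control -2.32 ± 0.63 (adjusted p = 0.301).

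B cell markers moved beside FCER2. Of 14 B cell markers tested 11, 7 and 9 fell and 0 rose in LR12 animals at 2, 4 and 8 h, and their mean log2 intensity went from 7.15 ± 0.44 (SD, n = 6) at 0 h to 5.55 ± 0.75, 6.14 ± 0.75 and 6.04 ± 0.63. At those hours 37.8%, 42.6% and 36.4% of all genes were called in that arm, with 4126, 4780 and 4092 of 16020 lower. CR2, a complement receptor of B cells, fell by 2.81 at 2 h (SE 0.57, adjusted p = 6.31e-05). The range of the list over LR12 animals was 6.60 to 7.81 at 0 h and 4.94 to 6.98 at 2 h. In the peptide control arm 1 marker fell at each hour, beside 7.63%, 15.3% and 4.29% of all genes called. The list's mean there went from 7.05 to 6.61, 6.64 and 6.60. Among vehicle animals limma called 0 markers, beside 0.0749%, 0.481% and 0.144% of all genes, and the mean was 6.96, 6.83, 6.90 and 7.10. Y31303, low in FCER2, also went down in the list, from 6.32 at 0 h to 5.56 at 8 h. In whole blood fewer cells of a type and less RNA per cell cannot be told apart, and the part of B cells in the fall of FCER2 was not tested.

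**Figure D4:**
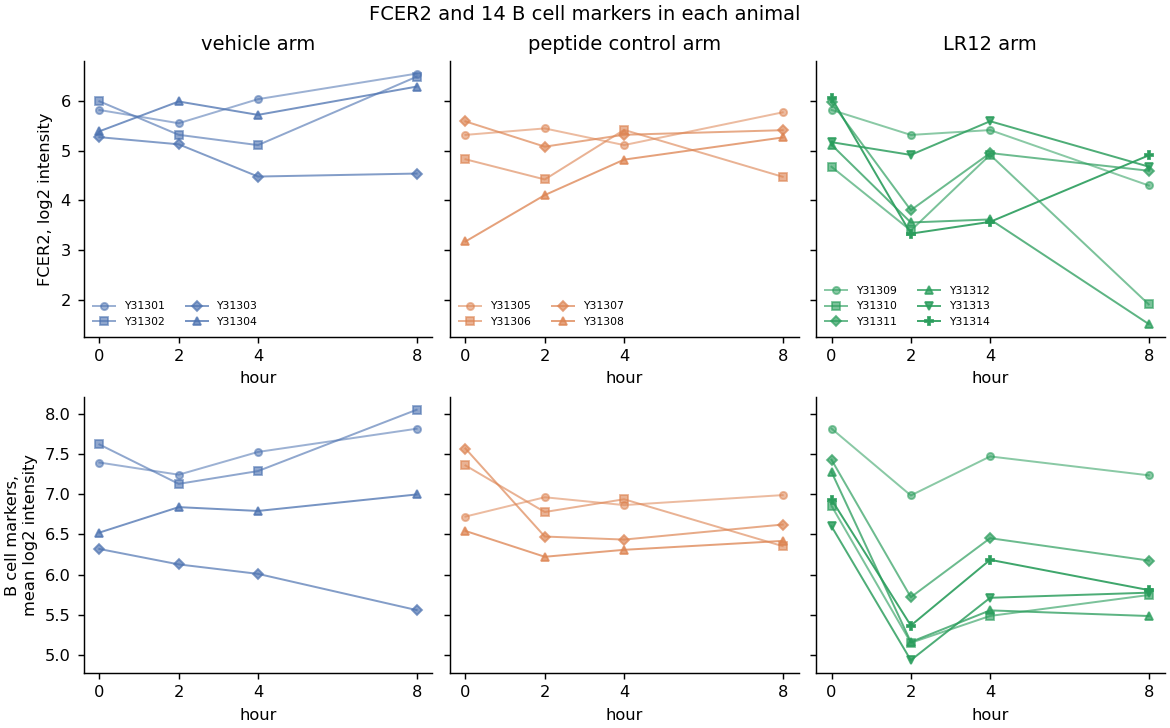
FCER2 as log2 intensity (upper row) and the mean log2 intensity of 14 B cell markers (lower row) against hour (horizontal axis), with a line for each animal in each arm. Both are lower at 2 h than at 0 h in all 6 LR12 animals, and in the vehicle arm Y31303 has the lowest value of both at 8 h.

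Between arms few members were called. LR12 against vehicle called 0 members at 0 h, 2 at 2 h and 1 at 4 h, namely FCGR1A and FCER2 and then FCGR1A, and again both at 8 h, against 0.0312%, 17.8%, 14% and 4.64% of all genes. LR12 against the peptide control called 0 members at 0, 2, 4 and 8 h, with 0, 1, 2 and 2 members at an unadjusted p under 0.05 and 0 by the fit without the block, against 0%, 4.53%, 1.85% and 0.0624% of all genes. Peptide control against vehicle called 0 members at those hours, with 0, 1, 2 and 1 at an unadjusted p under 0.05, against 0%, 0%, 0.025% and 0.025% of all genes. For the change from 0 h, LR12 against vehicle called 0, 1 and 0 members at 2, 4 and 8 h, against 10.5%, 7.02% and 1.74% of all genes. The same difference between LR12 and the peptide control called 0 members, with 1 at each hour at an unadjusted p under 0.05, against 1.17%, 0.00624% and 0% of all genes. Between the peptide control and vehicle it called 0, with 1, 3 and 0 members at an unadjusted p under 0.05, against 0%, 0% and 0% of all genes. The comparisons with a given arm share its animals.

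Of 21 other Fc receptor genes listed, 13 were tested, and LR12 animals showed 2 rises and 5 falls after 2 h, 2 and 3 after 4 h, 1 and 7 after 8 h. These are 7, 5 and 8 of 13, beside 37.8%, 42.6% and 36.4% of all genes called. Their median change was -0.73, -0.48 and -1.1, against -0.18, -0.29 and -0.27 over all genes. FCER1A, the IgE-binding chain that pairs with FCER1G on basophils, fell by 2.36, 2.82 and 2.68 at 2, 4 and 8 h (SE 0.38, adjusted p at most 1.21e-06) while FCER1G rose. FCER1A in the peptide control arm fell at 4 and 8 h, by 2.15 and 1.93 (SE 0.46, adjusted p = 0.00202 and 0.0103). Its vehicle mean also went down, from 7.74 at 0 h to 7.22, 6.16 and 6.72 at 2, 4 and 8 h, not called. At 4 h the means were 5.73 in the LR12 arm and 5.80 in the peptide control arm. FCMR, the receptor for IgM, fell by 1.88, 2.07 and 1.60 under LR12. The Fc receptor-like genes of B cells fell in part: FCRL3 by 1.31, 1.31 and 1.45, FCRLA by 1.81 and 1.1 at 2 and 8 h, FCRLB by 1.2 and 2.17 at 2 and 8 h, and FCRL1 and FCRL5 by 1.59 and 1.12 at 8 h. FCRL2 was not called. TRIM21, the antibody receptor of the cytosol, rose by 1.22 and 1.58 at 2 and 4 h and read 0.01 at 8 h. In the peptide control arm TRIM21 rose by 1.11 at 4 h, where FCRL1 fell by 2.37. FCRL1 had a low signal, which limits its folds. Its mean went from 4.44 to 2.07 in that arm and from 4.12 to 2.52 at 8 h under LR12. The 20th percentile of an array's log2 values was 1.28 to 2.68. B2M, the light chain partner of FCGRT, differed from 0 h by 0.19, 0.02 and 0.14 under LR12, and PIGR, the transporter of polymeric antibody, by -0.26, 0.00 and -0.50, none called. Among vehicle animals limma called 0 of the 13 genes, beside 0.0749%, 0.481% and 0.144% of all genes at 2, 4 and 8 h. FCER1A is also among the basophil markers and FCRLA among the B cell markers used here.

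FCGR3, the low-affinity IgG receptor CD16, was read best by a probe set shared by the human genes FCGR3A and FCGR3B. It is described here after its values were seen. In the LR12 arm it lay at 8.46 to 10.80 at 0 h, 5.02 to 6.91 at 2 h, 5.65 to 7.88 at 4 h and 8.34 to 10.67 at 8 h, so that it was below the 0 h range at 2 and 4 h and overlapped it at 8 h. It fell by 3.22 at 2 h and by 2.39 at 4 h (limma adjusted p over all probe sets 1.78e-07 and 3.1e-05), with 0.28 at 8 h. In the peptide control arm it fell by 2.98 at 2 h (adjusted p = 0.000553) and read -1.57 and 0.48 at 4 and 8 h. The vehicle values of -1.54, -1.26 and -0.51 were not called. A lower-signal probe set annotated to FCGR3B alone did not move with it in the LR12 arm, at -0.73, -0.58 and -0.08, none called, and read 1.31 at 8 h in the peptide control arm, called over genes (adjusted p = 0.0462) and not over probe sets (adjusted p = 0.0594).

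Genes that carry signals from Fc receptors went in both directions. Of 33 tested, LR12 animals showed 11 rises and 8 falls after 2 h, 8 and 11 after 4 h, 8 and 6 after 8 h, with a median change of 0.05, -0.16 and 0.07. Calls took in 37.8%, 42.6% and 36.4% of all genes at those hours, close to the list's share at 8 h. VAV1, an exchange factor that drives actin remodelling, rose by 2.31 ± 0.24 at 2 h. FGR, a Src-family kinase of myeloid cells, rose by 1.24 ± 0.13, and LAT2, an adaptor of myeloid cells and B cells, by 1.16 ± 0.16 (adjusted p at most 7.15e-08 for each). DOK2, an inhibitory adaptor, fell by 2.76 at 2 h, and PLCG1 and FYN, abundant in T cells, fell by 2.43 and 2.15 at 4 h. The kinase SYK, which binds the phosphorylated tail of FCER1G, was called at 4 h with 0.55 ± 0.17 (adjusted p = 0.00654), and LYN at 2 h with 0.42 ± 0.13 (adjusted p = 0.00603). TYROBP, the adaptor related to FCER1G through which TREM-1 signals, fell by 0.29 at 4 h. INPP5D, the phosphatase that FCGR2B recruits, fell by 0.48 and 0.69 at 2 and 4 h, and PTPN6 was not called. Peptide control animals showed 3 rises and 3 falls after 2 h, 4 and 6 after 4 h, 1 and 1 after 8 h, among them VAV1 and FGR, higher by 1.97 and 1.15 at 2 h.

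Genes of phagocytosis and the actin machinery were mostly called upward. Of 28 tested, LR12 animals showed 18 rises and 2 falls after 2 h, 13 and 3 after 4 h, 12 and 3 after 8 h, beside 37.8%, 42.6% and 36.4% of all genes called. PLD1, a phospholipase of membrane traffic, rose by 3.51 ± 0.36 at 4 h, MARCKS, a regulator of the cortical actin, by 2.51 ± 0.28 at 2 h, and PLA2G4A, which releases arachidonic acid, by 2.28 ± 0.50 at 4 h. WAS, an activator of actin branching, and MYO1G, a membrane-bound myosin, fell by 1.21 and 1.35 at 4 h. The list's median change was 0.52, 0.24 and 0.31. Peptide control animals showed 5 rises and 0 falls after 2 h, 5 and 2 after 4 h, 3 and 0 after 8 h.

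Of 21 genes of the interferon gamma response, the program that induces FCGR1A, LR12 animals showed 14 rises and 1 fall after 2 h, 16 and 2 after 4 h, 6 and 4 after 8 h, with a median change of 0.70, 0.93 and 0.17, beside 37.8%, 42.6% and 36.4% of all genes called. ICAM1, an adhesion molecule, rose by 5.49 ± 0.50 at 2 h, and CXCL10, a chemokine, by 4.10 ± 0.51 at 4 h before reading -1.34 ± 0.51 at 8 h (adjusted p = 0.0355), below its 0 h level. SOCS1, a brake on the pathway, rose by 2.28 ± 0.32 at 4 h, and the transcription factor IRF1 by 1.43 and 0.66 at 2 and 4 h with -0.05 at 8 h. FCGR1A was still up by 5.19 at 8 h, when IRF1 was not called and CXCL10 was lower than at 0 h. The part of this program in the rise of FCGR1A was not tested. IRF8, a factor of monocytes and B cells, fell by 1.17 at 2 h. Peptide control animals showed 5 rises and 2 falls after 2 h, 7 and 0 after 4 h, 2 and 1 after 8 h. The shares of all genes called in the peptide control arm were 7.63%, 15.3% and 4.29%. For vehicle limma called 0 genes of the signalling, phagocytosis and interferon lists at each hour. Only 0.0749%, 0.481% and 0.144% of all genes were called in that arm, so these counts of 0 do not set the lists apart.

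**Figure D5:**
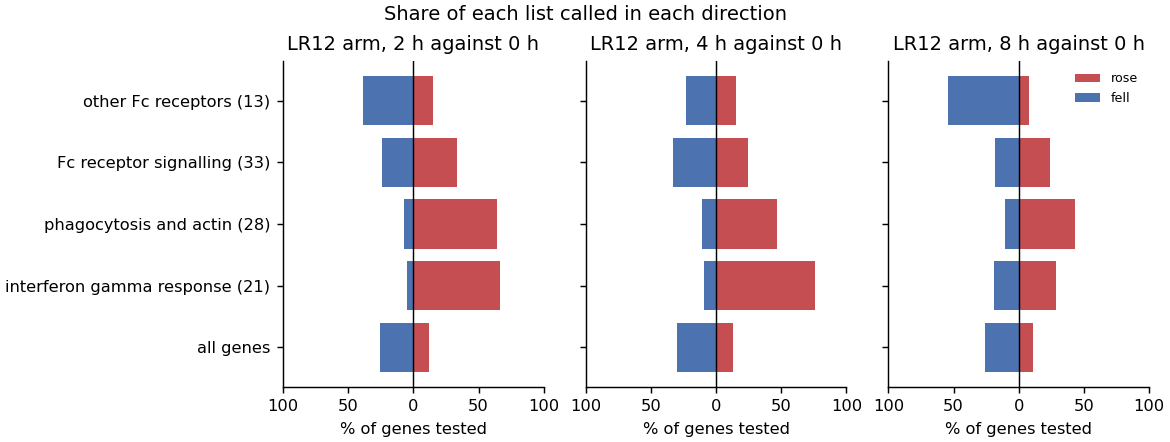
Share of genes tested (horizontal axis, in percent) called higher (right) and lower (left) than at 0 h in the LR12 arm at 2, 4 and 8 h, for 4 lists and for all 16020 genes. Of the 28 phagocytosis and actin genes 18 rose at 2 h and of the 21 interferon gamma genes 16 rose at 4 h, while more of all genes fell than rose at each hour.

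Markers of the cells that carry these receptors also moved. In the LR12 arm 37.8%, 42.6% and 36.4% of all genes were called at 2, 4 and 8 h. Of the 16020 genes, 1932, 2047 and 1740 were called higher and 4126, 4780 and 4092 lower. Of 15 neutrophil markers 11, 13 and 12 rose and 0 fell in the LR12 arm at 2, 4 and 8 h, their mean log2 intensity going from 7.62 ± 0.45 at 0 h to 8.91 ± 0.24, 9.08 ± 0.17 and 9.02 ± 0.22 (SD, n = 6). In the peptide control arm the mean went from 7.91 to 8.64, 8.57 and 8.64, and in the vehicle arm from 7.64 to 8.50, 8.31 and 8.19. Monocyte markers went both ways: of 13 tested, LR12 animals showed 6 rises and 4 falls after 2 h, 8 and 3 after 4 h, 7 and 1 after 8 h, with CD14, the endotoxin co-receptor, up by 1.65 ± 0.21 and CSF1R, the receptor of a monocyte growth factor, down by 4.16 at 2 h. The list's mean went from 10.77 ± 0.20 to 10.25 ± 0.13, 10.80 ± 0.14 and 11.24 ± 0.14. Of 12 T cell markers 11, 12 and 11 fell, and of 12 natural killer cell markers 6, 7 and 6, with 1 higher at 4 h. The part of these cell types in the changes of FCGR1A, FCGR2A, FCGR2B, FCER1G and FCAR was not tested.

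Over the 56 arrays, which share arms, hours and 14 animals, each member had genes whose levels ran most like its own, given here as Pearson correlations without a test. FCGR1A ran with FCGR1BP (0.971), AGFG1 (0.908) and MARCO (0.903), a scavenger receptor of macrophages. FCER1G ran with PRDX6 (0.893), FLOT1 (0.870) and PGK1 (0.865). FCGR2A ran with ACTR3 (0.822), a subunit of the actin-branching complex, ATP5PB (0.809) and LILRA2 (0.808), and FCGR2B with SHISA5 (0.815), MMP25 (0.815) and MGAM (0.804), the last pair also in the neutrophil list. For FCGRT the closest were LRCH4 (0.784), SIRPA (0.781) and DCTN2 (0.781). FCER2 and FCAR had lower values, FCER2 with ZNF232 (0.738), HVCN1 (0.733) and MSANTD2 (0.724), and FCAR with FGD4 (0.734), COXFA4L3 (0.71) and MCTP1 (0.688).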

How the data were processed

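Whole blood had been collected in PAXgene tubes, and biotinylated cDNA had been made from 50 ng of total RNA with a NuGEN kit, per the labels' protocols. Per the submitters' processing notes the authors used MAS5, and the deposited table holds its intensities on a linear scale; version and settings are not given in the sources used here. Macaque RNA was read on human probes, so sequence differences can lower a signal. Values were put on the log2 scale. A probe set was kept if above its array's median on at least 4 of 56 arrays, and each gene was read by its kept single-symbol probe set of highest mean, with symbols from GEO's annotation, which can be old. The number of arrays limits the precision.

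One limma 3.58.1 model (R 4.3.3) covered 12 groups of arm and hour, with a trended, robust prior and the animal as a random block (consensus correlation 0.221), because the labels give the animal of each array. In deviations from group means, arrays of one animal correlated by 0.180 on average, others by -0.0294, and 45 of 56 arrays correlated best with one of their own animal. Each of 30 two-sided comparisons was adjusted over all 16020 genes. The fit was tested on simulated data. The members, lists and array sets were chosen with earlier results of these data known. All 7 members are named. From lists, called genes with the 3 largest rises and falls under LR12, the other Fc receptors and SYK, LYN, TYROBP, INPP5D, PTPN6 and IRF1 are named (some others of the rule are not reported here), and for each member the 3 genes most correlated with it. Alternatives were a fit without or with a fixed block, other scalings, filters and probe sets, the array set, and leaving out each animal. Sequences, doses and cell counts were not used here.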

Additional observations from a re-analysis of the deposited data

Results flagged for a closer look

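In 7 of the 84 groups of 4 or 6 animals checked, 1 animal lay far from the rest relative to the group's range; chance flags about 1 in 20 groups. FCGR1A in the LR12 arm at 0 h was 5.25 in Y31314, with the others at 5.90 to 6.21. FCAR at 0 h in the same arm was 10.39 in Y31314, with the others at 8.47 to 9.12. FCAR in the peptide control arm at 0 h was 9.64 in Y31308, with the others at 8.89 to 8.96. FCER2 in the vehicle arm at 8 h was 4.54 in Y31303, with the others at 6.29 to 6.55. FCGRT in the vehicle arm was 12.26 in Y31304 at 2 h, with the others at 12.01 to 12.05, and 12.34 in Y31302 at 4 h, with the others at 11.82 to 11.89. FCGRT in the peptide control arm at 2 h was 11.63 in Y31307, with the others at 12.22 to 12.31. FCGR1A is also listed because its change to 4 h differed between LR12 and vehicle, by 4.30 in the limma test of that difference.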

How the results depend on the processing

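The number of Fc receptor genes called depended on the processing, in comparisons with 4 animals and also among the 6 LR12 animals. Not every change in a count is listed here. Without the replicate block, that is without pairing by animal, it was 1 and 0 in the peptide control arm at 2 and 8 h, and 0 for LR12 against vehicle at 2 h and in the change to 4 h; with a fixed replicate block it was 1 in the vehicle arm at 2 h (FCGR2B) and 2 for LR12 minus vehicle in the change to 8 h (FCGR1A and FCER2). For LR12 animals against their 0 h levels, the fit without the block called 4, 3 and 5 genes after 2, 4 and 8 h. The main fit called 6, 4 and 5. Centring arrays on their median gave 1 in the vehicle arm at 4 h, 3 and 2 in the peptide control arm at 4 and 8 h, and 0 for LR12 against vehicle at 2 h. Quantile normalization gave 2 in the peptide control arm at 8 h. Adding 16 before log2 gave 1 for LR12 against vehicle at 2 h and 1 in the change to 8 h. Without the filter on low values there was 1 in the peptide control arm at 2 h and 1 for LR12 against vehicle at 2 h, and with a stricter filter 1 in the change to 8 h. The array set as a covariate gave 4 for LR12 against vehicle at 8 h. Fits within an array set were chosen after seeing the data. The low-control arrays, with only Y31301 and Y31302 for vehicle at 0 h, gave 3 and 2 in the vehicle arm at 2 and 4 h and 0 and 0 in the peptide control arm at 2 and 8 h, and the high-control arrays, with fewer samples, gave 0 in the peptide control arm, in the LR12 arm and for LR12 against vehicle at 4 and 8 h and in the change to 4 h; FCGR2B in the LR12 arm at 2 h read -0.20 there, from 1 array of Y31310 at 0 h and 1 of Y31311 at 2 h, while 6 of 6 animals were above their own 0 h value. Leaving out each animal in turn gave 0 to 2 in the peptide control arm at 2 and 4 h and 0 to 1 at 8 h, 4 to 6, 3 to 4 and 5 to 5 in the LR12 arm at 2, 4 and 8 h, 0 to 4, 1 to 2 and 0 to 5 for LR12 against vehicle, and 0 to 1 and 0 to 2 in the change to 4 and 8 h. The calls over all genes moved too when animals were left out. For LR12 against vehicle they ran from 1683 to 3692, 950 to 3897 and 100 to 2885 at 2, 4 and 8 h. The highest of these were each without Y31303. In the peptide control arm they ran from 310 to 1704, 253 to 3681 and 6 to 1660. In the change to 4 and 8 h, LR12 minus vehicle, they ran from 52 to 2234 and 1 to 1320. Of 5216 single-gene values over 26 alternatives, 5070 stayed on the same side of the threshold, 100 lost and 45 gained the call. In 1, FCGR2B in the LR12 arm at 2 h within the high-control arrays, a called change reversed direction. Changes of direction in values called in neither fit were not counted. The second probe set of a gene gave no counts, since only 4 members have one. Signals near the array median (FCER2, FCGR1A at 0 h) limit the folds from them.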
